A study of Homo sapiens with 6 samples.

Results

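Expression of 10 genes of myeloid granules is described across 6 RNA-seq libraries: the serine protease genes PRTN3, ELANE and CTSG, the related AZU1 and CFD, the peroxidase gene MPO, the ribonuclease gene RNASE2, the gelatinase gene MMP9, the protease inhibitor gene SERPINB1 and the proteoglycan gene SRGN. They were picked by symbol and are 10 of the 60660 gene IDs in each file. All 10 were found once. The choice was made with earlier results of these data known, so their differences between groups are given as a description. Where the fit over all genes placed them past its threshold, that is given as a count and supports nothing. The cells were OCI-AML3, an established line from a human acute myeloid leukaemia. In 3 of them the cells carried the empty pLenti vector, and in 3 they overexpressed SLC2A3, the gene of the glucose transporter GLUT3. Both groups were treated with 250 µM vitamin C, and no culture without the vitamin is analysed here. The labels give neither the promoter driving SLC2A3 nor whether the transduced cells were a pool or 1 clone. They also do not say that replicates were separate cultures, so any p-value measures only the spread between these libraries, which may be technical.

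Neutrophil serine proteases are made in the promyelocyte and packed into the primary (azurophil) granules. PRTN3 encodes proteinase 3, ELANE neutrophil elastase and CTSG cathepsin G, while azurocidin, from AZU1, has the same fold but no protease activity. Cathepsin C removes a short propeptide to activate the proteases, the proteoglycan serglycin holds them in the granule, and the cytosolic serpin SERPINB1 inactivates those that escape. Acute myeloid leukaemia cells arrested near this stage often keep the granule programme, and proteinase 3 is also a leukaemia-associated antigen and the target of autoantibodies in vasculitis.

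Values are normalised reads, that is, gene read counts divided by 1 size factor per library. The reads assigned to genes numbered 31054462 to 35770556 per library. SLC2A3 stood at 1183 to 1257 normalised reads in the empty vector libraries and at 3716 to 4056 where it was overexpressed. The myeloid markers CD33 and ANPEP were present at means of 2564 and 2234 in the empty vector group, whereas KIT was under 10 in every library. The 6 myeloid blast markers summed to 43681 to 44876 with the empty vector and to 45620 to 47862 with SLC2A3. Most of that sum was NPM1, with means of 39276 and 41903. CD33, ANPEP and CD34 had lower means with SLC2A3 (log2 changes -0.051, -0.13 and -0.68), ANPEP without overlap, and ITGAM a higher one (0.16). Of the 6 markers, 0 passed in limma, 0 in edgeR and 1 (NPM1) in DESeq2, and 2 had an unadjusted limma p under 0.05. The part of these differences in the results was not tested. Of the erythroid genes, HBA1 and HBB were at 0 in all libraries, as were the lymphoid CD3E and MS4A1 and the macrophage receptor MRC1. The 6 monocyte and macrophage markers together gave 2069 to 2464 normalised reads with the empty vector and 2025 to 2264 with SLC2A3. Of these, 0 passed in limma and 1 (CSF1R) in edgeR and in DESeq2, and 2 had an unadjusted limma p under 0.05. Of the 5 eosinophil and mast cell markers, with CPA3 at 0, the sum was 13.2 to 23.0 and 13.4 to 25.1. In bulk libraries, fewer cells of a type and less RNA per cell cannot be told apart.

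AZU1, PRTN3, ELANE and CFD lie side by side on chromosome 19, in that order and all on the plus strand, within 38.5 kb (825097 to 863630, GRCh38, GENCODE 29). PRTN3 spans chr19:840960-848175, AZU1 chr19:825097-832018, ELANE chr19:851014-856247 and CFD chr19:859643-863630. The other members are CTSG (chr14:24573522-24576260, minus strand), RNASE2 (chr14:20955452-20956436), MPO (chr17:58269856-58280935, minus strand), MMP9 (chr20:46008908-46016561), SERPINB1 (chr6:2832332-2842006, minus strand) and SRGN (chr10:69088106-69104811). Between the end of AZU1 and the start of PRTN3 lie 8941 bases, between PRTN3 and ELANE 2838 and between ELANE and CFD 3395. Promoter sequence was found in the RefSeq table (GRCh38.p14) for PRTN3, AZU1, CTSG, CFD, RNASE2 and SERPINB1. ELANE, MPO, MMP9 and SRGN had no entry. The windows from 200 to 41 bases before the RefSeq start are printed for PRTN3 and its neighbour AZU1, which differed most in their change within the cluster, and for CTSG and RNASE2, which lie on another chromosome and were higher with SLC2A3 as PRTN3 was. They overlap no exon of GENCODE 29, although the AZU1 window lies inside that annotation's longer span of the gene. The windows are chr19:840799-840958, chr19:827637-827796, chr14:24576291-24576450 (minus strand) and chr14:20955287-20955446, each given 5′ to 3′ on the strand of its gene, with the motif matches described next in capitals.
PRTN3: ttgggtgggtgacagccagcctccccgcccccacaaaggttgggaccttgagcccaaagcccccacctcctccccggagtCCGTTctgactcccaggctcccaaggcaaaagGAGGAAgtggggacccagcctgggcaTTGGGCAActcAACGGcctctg
AZU1: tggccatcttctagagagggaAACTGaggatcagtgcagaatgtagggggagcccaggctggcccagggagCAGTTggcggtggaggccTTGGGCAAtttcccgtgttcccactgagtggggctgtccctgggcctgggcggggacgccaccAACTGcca
CTSG: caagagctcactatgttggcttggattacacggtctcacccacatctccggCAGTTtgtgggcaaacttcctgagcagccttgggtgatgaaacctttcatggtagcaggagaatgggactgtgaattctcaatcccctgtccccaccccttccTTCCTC
RNASE2: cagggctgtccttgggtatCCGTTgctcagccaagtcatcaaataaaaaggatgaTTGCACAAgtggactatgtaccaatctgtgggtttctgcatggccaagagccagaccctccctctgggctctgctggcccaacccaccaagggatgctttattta

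Letters resembling the sites of 3 myeloid factors, C/EBP (TTGCNNAA), PU.1 (GAGGAA) and MYB (AACNG), and of RUNX (TGTGGT) and the TATA box (TATAAA) were searched on both strands, with no overlap between the matches found in the printed windows. Among 35116 promoter windows of the same length, 5.80% held the C/EBP letters, 15.4% the PU.1 letters, 54.5% the MYB letters, 7.09% the RUNX letters and 5.61% the TATA letters. The PRTN3 window held all 3 of the myeloid motifs: TTGGGCAA from 62 to 55 bases before the start, GAGGAA from 88 to 83, and MYB letters at 120 to 116 and 51 to 47. In AZU1 the same 8 letters, TTGGGCAA, lay 111 to 104 bases before the start, with MYB letters at 3 places and no PU.1 match. CTSG held the PU.1 letters at 46 to 41 and 1 MYB match, and RNASE2 a C/EBP match, TTGCACAA, at 145 to 138 and 1 MYB match. The CFD window held none of the 5 motifs and 11 CpG, against 4 in each of the PRTN3 and AZU1 windows and a median of 7 over all windows. These matches describe letters only and say nothing of whether a factor binds there.

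Granule transcripts were abundant in this line. Together the 10 genes took 0.829% to 0.853% of all reads assigned to genes with the empty vector and 0.917% to 0.964% with SLC2A3. The groups did not overlap. CTSG made up 43.9% to 46.1% of that sum in every library. Set per kb of exon, with the union of all GENCODE 29 exons of a gene as its length, CTSG led at 90671 ± 3579 normalised reads per kb (SD, n = 3) in the empty vector group. SRGN followed at 33444 ± 1259, and then AZU1 at 22221 ± 963, CFD at 20670 ± 679 and PRTN3 at 20167 ± 258. The ranges of AZU1 and CFD overlapped, as did those of CFD and PRTN3, so these neighbours in the order did not differ beyond their spread. ELANE stood at 10720 ± 282 normalised reads per kb, RNASE2 at 7753 ± 143, MMP9 at 2115 ± 59.0 and SERPINB1 at 770 ± 77.8. MPO, the defining peroxidase of the primary granule, was last at 44.5 ± 6.43, 17.3-fold under SERPINB1. In the SLC2A3 group PRTN3 moved to the third place, at 29716 ± 1695 normalised reads per kb, above CFD (23489 ± 3122) without overlap, while CFD and AZU1 (22399 ± 1036) overlapped. CFD kept the fourth place and AZU1 moved to the fifth, and the order of the other genes was the same in both groups.

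**Figure D1:**
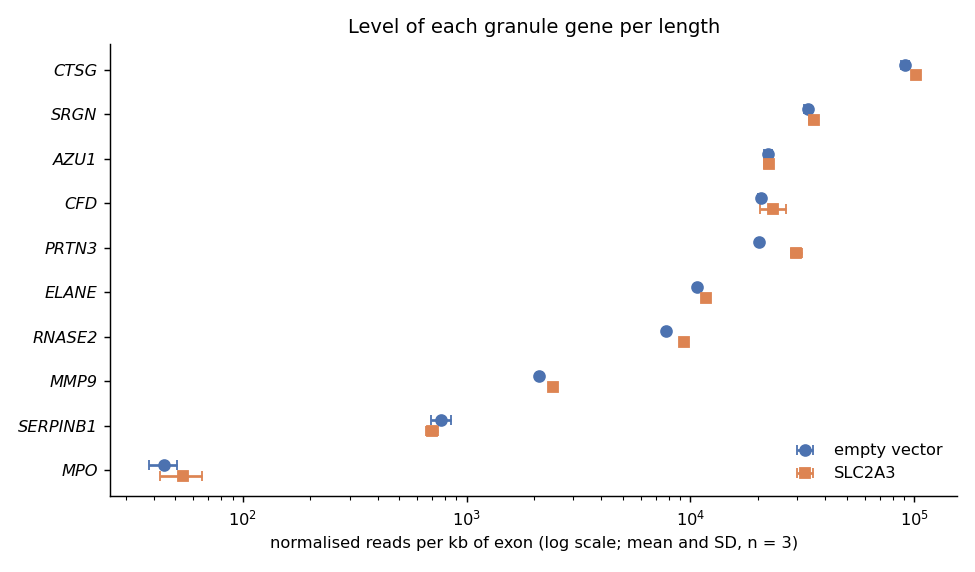
Normalised reads per kb of exon (x axis, log scale) for the 10 granule genes, as the mean and SD of 3 libraries per group. CTSG is highest at 90671 in the empty vector group and MPO lowest at 44.5, and PRTN3 is the gene whose groups lie farthest apart among the abundant ones.

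PRTN3 gave 22774, 23321 and 23238 normalised reads with the empty vector and 33003, 36296 and 32866 with SLC2A3. The lowest SLC2A3 library therefore lay well above the highest empty vector library, and replicate 2 was the highest of its group in both. Group means were 23111 ± 295 and 34055 ± 1942 (SD, n = 3 each), a ratio of 1.47 and a log2 change of 0.56 (SE 0.038) on the log2(value + 1) scale. The reads behind each value numbered 22358 to 37850, which alone would give a coefficient of variation of 0.589%, or 0.833% if each fragment was counted as 2 reads. The observed one was 1.28% among the empty vector libraries and 5.70% among the SLC2A3 libraries. Under the alternatives tried, the log2 change ranged from 0.51 to 0.58, and it was 0.51 without SLC2A3 replicate 2.

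ELANE, whose gene starts 2838 bases beyond the end of PRTN3, had a much smaller difference. Its libraries read 11193, 10686 and 11182 against 12004, 12170 and 12050, so the groups did not overlap but lay close. The ratio of means was 1.10 and the log2 change 0.13 (SE 0.039). AZU1, on the other side of PRTN3, did not separate the groups at all: its values were 37655, 40835 and 40367 with the empty vector and 42009, 38460 and 39343 with SLC2A3. Its log2 change was 0.011 (SE 0.038), and the sign turned without empty vector replicate 1 (-0.025) or SLC2A3 replicate 1 (-0.026).

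CFD encodes complement factor D, the protease that cleaves factor B in the alternative pathway. Its normalised reads were 25180, 24472 and 26125 with the empty vector and 27010, 33072 and 26029 with SLC2A3. Replicate 2 of the SLC2A3 group stood apart, and the groups overlapped. The log2 change of 0.18 (SE 0.054) was 0.071 without that library and 0.048 without replicate 2 of both groups.

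CTSG, on chromosome 14 beside the granzyme genes, was the most abundant of the set. It gave 121994, 130253 and 121501 normalised reads with the empty vector and 143707, 140261 and 134428 with SLC2A3, so that every SLC2A3 library lay above every empty vector library. The means were 124582 ± 4917 and 139465 ± 4690, a ratio of 1.12 and a log2 change of 0.16 (SE 0.033).

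**Figure D2:**
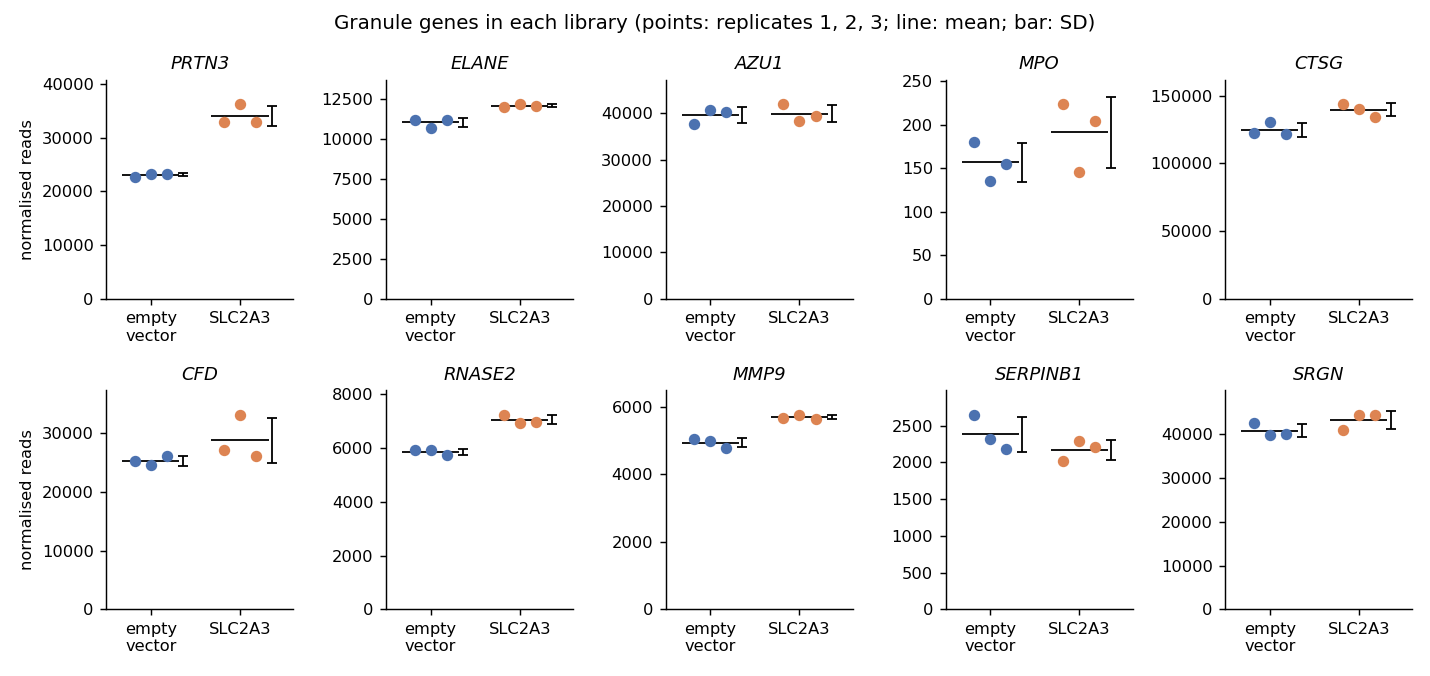
Normalised reads (y axis, from 0) of the 10 granule genes in each of the 3 empty vector and 3 SLC2A3 libraries, with the group mean as a line and the SD as a bar. The groups are apart for PRTN3, ELANE, CTSG, RNASE2 and MMP9 and overlap for AZU1, MPO, CFD, SERPINB1 and SRGN, where CFD has 1 high library at 33072.

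Set against other genes of its fold within the same library, which removes any factor common to all genes of that library, PRTN3 remained apart. The ratio of PRTN3 to AZU1 reads was 0.605, 0.571 and 0.576 with the empty vector and 0.786, 0.944 and 0.835 with SLC2A3. Against ELANE the ratio was 2.03, 2.18 and 2.08, and then 2.75, 2.98 and 2.73. Against CTSG it was 0.187, 0.179 and 0.191, and then 0.230, 0.259 and 0.244. Each of these ratios was higher in all 3 SLC2A3 libraries than in any empty vector library. So was the ratio to CFD, at 0.890 to 0.953 against 1.10 to 1.26, where SLC2A3 replicate 2 was the lowest of its group. By contrast, the ratio of AZU1 to ELANE overlapped between groups, at 3.36 to 3.82 against 3.16 to 3.50. These ratios rest on the same contrast with which the genes were chosen and carry no test.

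**Figure D3:**
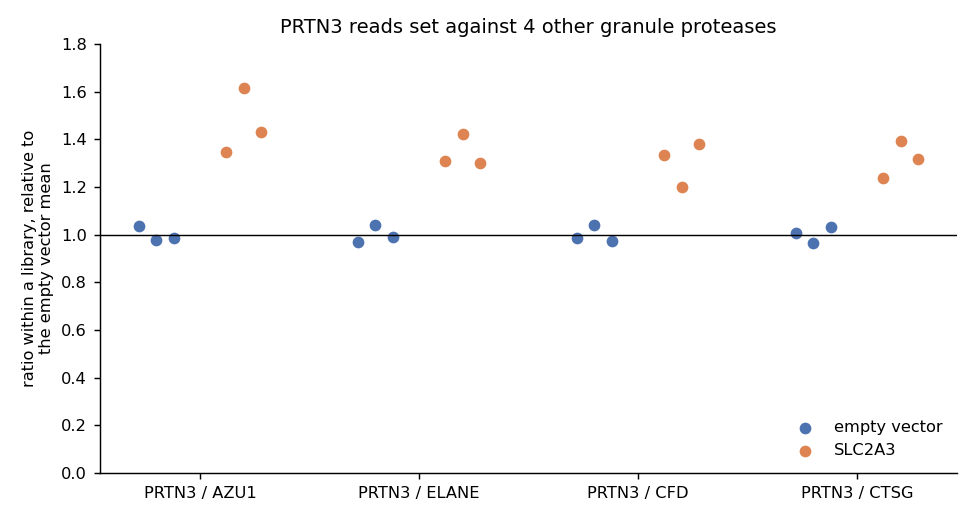
Ratio of PRTN3 reads to those of AZU1, ELANE, CFD and CTSG in each library (y axis, relative to the mean ratio of the 3 empty vector libraries; points are single libraries in order of replicate number). In all 4 ratios the SLC2A3 libraries lie above the empty vector libraries, as with PRTN3 to ELANE at 2.73 to 2.98 against 2.03 to 2.18.

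RNASE2 encodes the eosinophil-derived neurotoxin, a secretory ribonuclease that neutrophil precursors and monocytes also make. It stood at 5928, 5902 and 5730 normalised reads with the empty vector and at 7223, 6932 and 6957 with SLC2A3, without overlap. The ratio of means was 1.20 and the log2 change 0.27 (SE 0.043), the largest of the set after PRTN3 and MPO. Its close relative RNASE3, not a member, gave 566 ± 33.0 and 662 ± 28.3. How reads that match both genes were counted is not stated, so the division between them is uncertain. Besides RNASE2, 5 eosinophil, basophil and mast cell granule genes could be tested, and 0 passed in limma, edgeR or DESeq2 (1 with an unadjusted limma p under 0.05, median log2 change 0.36). Except for RNASE3 their means were low, and PRG3, HDC, CPA3 and TPSB2 were listed at 0.

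MMP9, the gelatinase stored in the late-forming gelatinase granules, was 5043, 4994 and 4784 against 5667, 5765 and 5645 normalised reads, again without overlap. Its ratio of means was 1.15 and its log2 change 0.20 (SE 0.045). SLC12A5-AS1, an antisense gene that overlaps MMP9, had means of 55.0 and 56.8. The library kit keeps strand, but whether counting used it is not stated.

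MPO was sparse, with 135 to 241 reads per library. The 180, 135 and 155 normalised reads with the empty vector overlapped the 224, 146 and 204 with SLC2A3. Its log2 change of 0.27 (SE 0.16) was as large as that of RNASE2, with a wider SE. The spread was 14.5% and 21.2% of the mean. Counting alone would give 7.56%, or 10.7% if each fragment was counted as 2 reads. Without SLC2A3 replicate 2 the change was 0.45, and without SLC2A3 replicate 1 it was 0.15.

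SRGN, the proteoglycan core that binds the basic proteases, overlapped between groups, at 42574, 39872 and 39958 against 40984, 44401 and 44442 normalised reads. Its log2 change was 0.085 (SE 0.037), and 0.049 without replicate 2 of both groups. A short noncoding gene (Metazoa_SRP) with means of 92.5 and 100.5 lies within SRGN on the same strand. SERPINB1 was the member with a lower mean in the SLC2A3 group, at 2649, 2320 and 2181 against 2019, 2293 and 2204. The groups overlapped, and its log2 change of -0.13 (SE 0.065) was -0.052 without empty vector replicate 1.

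In the limma fit over all 28015 tested genes, 4 of the 10 members, PRTN3, CTSG, RNASE2 and MMP9, were past an adjusted p of 0.05, all of them higher. Over all tested genes, 1.49% were past it in either direction with 0.692% higher and 0.8% lower. The groups did not overlap for 5 members, all higher, against 16.3% of all tested genes (8.04% higher and 8.27% lower). The median log2 change of the 10 was 0.17, beside 0.0014 over all tested genes. Since the genes were chosen with this contrast known, nothing is read from these counts. MMP9 was not past the threshold without empty vector replicate 3 or SLC2A3 replicate 3, and ELANE was past it with DESeq2 and with a filter of at least 50 normalised reads. CFD was past it under 4 alternatives, which were edgeR with either scaling, no filter and the filter of 50. All 10 passed the filter on low values.

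The genes around the chromosome 19 cluster were then examined, since they share the location but did not enter the choice. Within 200 kb of a member, 32 other genes are annotated and 25 were tested, of which 1 rose, 1 fell and 23 did not pass, beside 1.49% called over all genes. The median log2 change of the 25 was 0.046. PLPPR3, a lipid phosphatase-related membrane protein gene on the minus strand 3120 bases from AZU1, rose. Its values were 18545, 19953 and 20097 with the empty vector and 21789, 26644 and 21555 with SLC2A3, a log2 change of 0.25 (SE 0.054, limma adjusted p = 0.0103), without overlap. It was not called without SLC2A3 replicate 2, where the change was 0.15 (limma adjusted p = 0.0695), nor with DESeq2 or a pseudocount of 0.1. CNN2, an actin-binding calponin at the far edge of the window, fell by 0.24 on the log2 scale (SE 0.048, limma adjusted p = 0.00513), from 6421 ± 96.0 to 5429 ± 371 normalised reads, and kept its call without any 1 library. The splicing repressor gene PTBP1, at 22668 ± 245 and 21284 ± 429 normalised reads, did not pass.

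**Figure D4:**
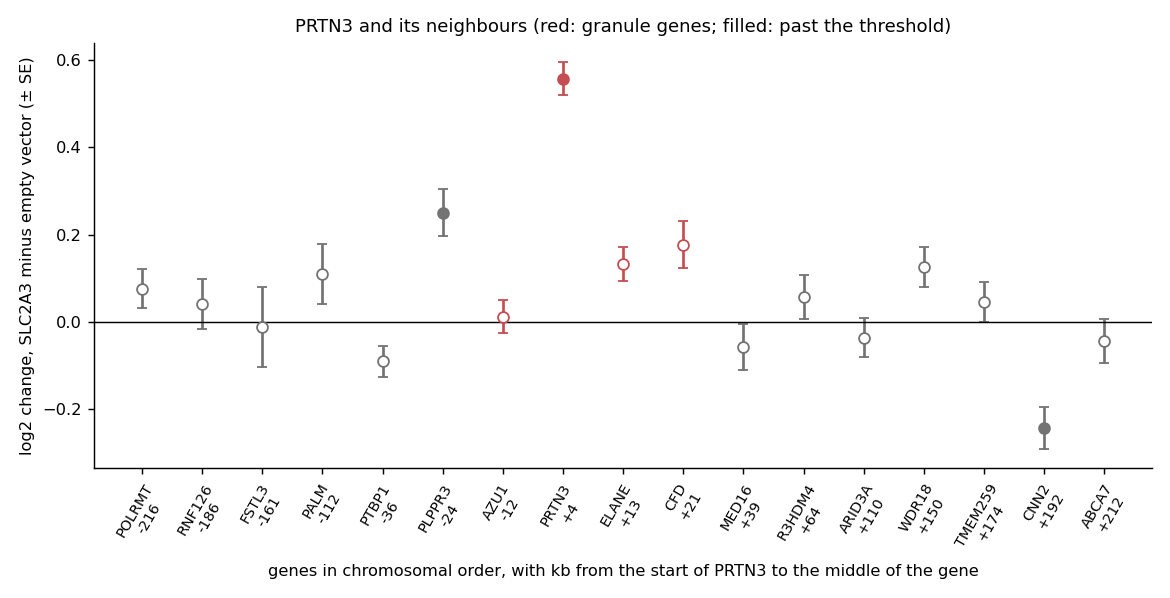
Log2 change between groups (y axis, ± SE) for PRTN3 and the protein-coding genes within 200 kb of the cluster that average at least 100 normalised reads, in chromosomal order with the distance from the start of PRTN3 in kb. Granule genes are red and filled symbols are past the threshold. PRTN3 stands at 0.56, PLPPR3 at 0.25 and CNN2 at -0.24, and AZU1, next to PRTN3, at 0.011.

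Several of the genes that were high in SLC2A3 replicate 2 are rich in G and C. On the log2 scale that library lay above the mean of the other two SLC2A3 libraries by 0.32 for CFD, 0.30 for PLPPR3, 0.14 for PRTN3 and 0.017 for ELANE, and AZU1 lay at -0.080. The GC content of their transcripts was 65.4%, 71.3%, 66.4%, 66.8% and 63.4%. Over 430 protein-coding genes with a GC content of at least 65%, the median of the same difference was 0.062, beside 0.0065 over all 10688 protein-coding genes compared. It was -0.028 over 1283 genes at 60 to 65%, -0.040 over 3314 at 50 to 60% and 0.036 over 5661 under 50%. In SLC2A3 replicate 2, CEBPA (GC content 65.9%), CEBPB (66.2%) and CEBPD (70.0%) were higher by 0.37, 0.26 and 0.27 in the same comparison. The noncoding RNA RN7SL1, at 6026 normalised reads in this library, was at 1922 and 2233 in the other SLC2A3 libraries. RN7SL1 was also the highest of its group in empty vector replicate 2, at 1812. In that library CFD, CEBPA, CEBPB and CEBPD lay at -0.068, -0.071, -0.073 and -0.11 against the mean of the other empty vector libraries. ELANE lay at -0.066, and PLPPR3, PRTN3 and AZU1 at 0.048, 0.020 and 0.067. The part of GC content or of RN7SL1 in the results for CFD and PLPPR3 was not tested.

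Of 12 other tested primary granule genes, 0 passed the test (median log2 change -0.0077, beside 0.0014 over all genes). With edgeR and with DESeq2 1 of them passed, CTSD, and 5 had an unadjusted limma p under 0.05. Lysozyme (LYZ) gave 10571 ± 601 and 9809 ± 107 normalised reads, and CTSD, of the lysosomal protease cathepsin D, 11420 ± 368 and 12652 ± 436 (limma adjusted p = 0.0667). The protease gene PRSS57 gave 17.1 ± 6.46 with the empty vector and did not pass. The defensin genes DEFA1, DEFA1B and DEFA3 were listed at 0 in every library, and DEFA4 and BPI had too few reads to be tested. How reads that match more than 1 gene were counted is not stated, so a 0 for these related defensin genes need not mean absence.

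Among 18 other tested secondary and gelatinase granule genes, 1 rose and 1 fell in limma, and 4 had an unadjusted limma p under 0.05. The lectin gene FCN1 rose from 78.6 ± 7.37 to 131 ± 10.2 normalised reads, a log2 change of 0.73 (SE 0.19, limma adjusted p = 0.0399), but was not called without any 1 of the 6 libraries. CHI3L1, which encodes the secreted chitinase-like protein YKL-40, went the other way, from 17888 ± 225 to 14804 ± 525, a log2 change of -0.27 (limma adjusted p = 0.000108), without overlap. CHI3L1 kept its call in all alternatives. The NADPH oxidase subunit genes CYBA and CYBB, at means of 21558 and 9994 in the empty vector group, did not pass. LTF, LCN2, OLFM4 and CD177, which mark the later granules, had at most 6 normalised reads in any library and were not tested.

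Of 20 tested genes of granule processing, storage and sorting besides SRGN, 0 passed in limma, with log2 changes between -0.14 and 0.11. With edgeR and with DESeq2 1 of them passed, UNC13D, and 2 had an unadjusted limma p under 0.05. CTSC, the activator of the serine proteases, gave 4037 ± 98.9 and 4372 ± 304, and UNC13D, which primes granules for release, 16986 ± 397 and 15408 ± 247 (limma adjusted p = 0.0514).

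Of 20 tested protease inhibitor genes besides SERPINB1, 1 rose in limma, CST7. With edgeR 3 passed (CST7, SERPINA1 and A2M), and with DESeq2 1 (SERPINA1), while 7 had an unadjusted limma p under 0.05. CST7 encodes cystatin F, an inhibitor of cathepsin C and other cysteine cathepsins, and stood at 196, 161 and 163 normalised reads with the empty vector and at 303, 274 and 266 with SLC2A3. It rose 1.62-fold (log2 change 0.70, SE 0.13, limma adjusted p = 0.00288), without overlap, and kept its call without any 1 library. DESeq2's own filter left CST7, like FCN1 and IL32, without an adjusted p. SERPINA1, which encodes alpha-1-antitrypsin, the main plasma inhibitor of elastase and proteinase 3, gave 763 ± 55.6 and 933 ± 65 (limma adjusted p = 0.0589), and was called with edgeR and with DESeq2. A2M, which encodes the broad protease inhibitor alpha-2-macroglobulin, went the other way, with 92.5 ± 23.9 and 49.0 ± 12.9 normalised reads, a log2 change of -0.91 (SE 0.25, limma adjusted p = 0.0730). TIMP3 and CSTA, at means of 20808 and 6153 in the empty vector group, did not pass in limma.

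Of 16 tested transcription factors linked to granule genes, 1 fell in limma and in edgeR (RARA) and 2 in DESeq2 (RARA and ETV6). The other 15 did not pass in limma. The unadjusted limma p was under 0.05 for 4 of the 16, with RARA and ETV6 lower and SPI1 and CEBPD higher. ETV6 gave 5351 ± 72.5 and 4839 ± 244 normalised reads (limma adjusted p = 0.138). SPI1, which encodes PU.1, gave 14901 ± 612 and 16172 ± 686 normalised reads, MYB 10213 ± 367 and 10766 ± 813, and CEBPA 9930 ± 296 and 10508 ± 1618. In the SLC2A3 group CEBPA was highest in replicate 2, at 12349, against 9859 and 9315. So were CEBPB, at 4374 against 3601 and 3722, and CEBPD, at 4236 against 3492 and 3527. CFD, PLPPR3 and RN7SL1 were also highest in that library of the group. In the empty vector group RN7SL1 was again highest in replicate 2, at 1812. There CFD, CEBPA, CEBPB and CEBPD were instead the lowest of the group, at 24472, 9605, 3525 and 3207. A link between these genes was not tested. CEBPE, the factor of late granules, was low, with means of 11.7 and 19.2. RARA, the retinoic acid receptor alpha gene, fell from 2611 ± 125 to 2188 ± 90.1, a log2 change of -0.25 (SE 0.056, limma adjusted p = 0.0131), and was not called without empty vector replicate 3 or SLC2A3 replicate 3.

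In limma, 1 gene passed in each of the metalloproteinase, complement and surface partner lists. Members aside, 3, 5 and 4 genes of these lists had an unadjusted limma p under 0.05. The membrane metalloproteinase gene MMP14 fell, with a log2 change of -0.16 (limma adjusted p = 0.0320), 1 of 10 tested metalloproteinase and ADAM genes besides MMP9, and lost its call without any 1 of 4 libraries (empty vector replicates 1 and 3, SLC2A3 replicates 2 and 3). With DESeq2 the gelatinase gene MMP2 also passed, at 8200 ± 248 and 7569 ± 131 normalised reads (limma adjusted p = 0.217). Complement C3, the substrate of the convertase that factor D helps to form, fell from 7532 ± 200 to 6147 ± 474 normalised reads, a log2 change of -0.30 (limma adjusted p = 0.000823), and was 1 of 13 tested complement genes besides CFD to pass. It kept its call without any 1 library. IL32, a cytokine reported to be a substrate and partner of proteinase 3, rose from 111 ± 27.2 to 186 ± 24.7, a log2 change of 0.76 (limma adjusted p = 0.0218), the 1 gene called by limma among 16 tested surface partners and substrates. IL32 was not called with a pseudocount of 0.1, or without empty vector replicate 1 or SLC2A3 replicate 2 or 3. With DESeq2 the called gene of this list was instead SPN, the surface sialoprotein CD43, which was lower in the SLC2A3 group, at 11717 ± 232 and 10810 ± 89.3 (limma adjusted p = 0.158). The integrin subunit ITGB2, at 48254 ± 709 and 47759 ± 1341, did not pass. Of 7 other tested genes of the same protease fold, granzymes included, 0 passed in limma, edgeR or DESeq2, while 1 had an unadjusted limma p under 0.05. GZMA and GZMB averaged 90.7 and 74.8 normalised reads in the empty vector group.

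**Figure D5:**
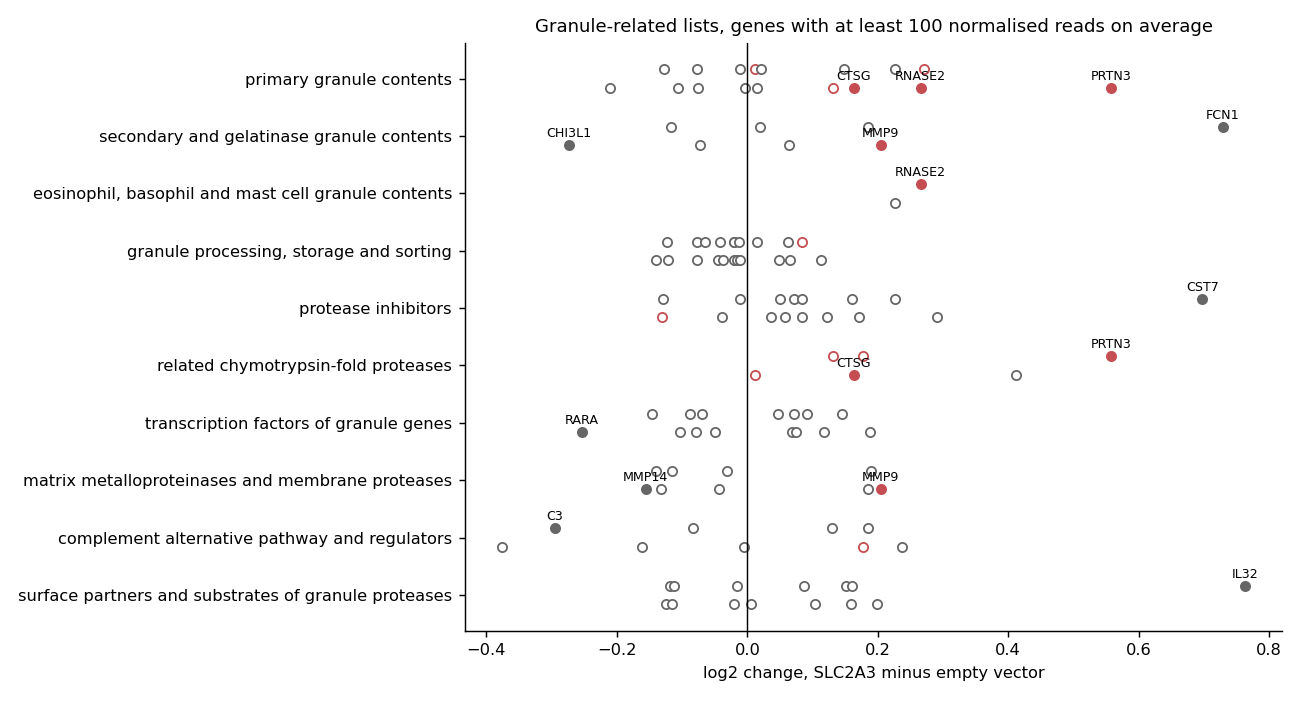
Log2 change between groups (x axis) for the genes of 10 granule-related lists that average at least 100 normalised reads, 1 row per list. The 10 granule genes are red, filled symbols are past the threshold, and only those are named. PRTN3 lies at 0.56, CST7 at 0.70, FCN1 at 0.73 and IL32 at 0.76, while CHI3L1, RARA, MMP14 and C3 lie below 0.

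Over the 6 libraries, the genes whose log2 values followed PRTN3 most closely among 10687 other protein-coding genes with a mean of at least 100 were UQCRB, GAREM2, ZNF7, FSTL4 and RNF145, with Pearson's r of 0.993 to 0.988. The 6 points share the 2 groups, so any gene that separates them evenly scores high. UQCRB, a subunit of respiratory complex III, changed little in size, from 9445 ± 12.3 to 10400 ± 138 normalised reads. Of the granule genes MMP9 was nearest to PRTN3, at rank 59 (r = 0.967), followed by RNASE2 (0.955), ELANE (0.937) and CTSG (0.889), while AZU1 (0.052) and SERPINB1 (-0.51) were far from it.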

How the data were processed

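RNA-seq libraries of OCI-AML3 cells, 3 with the empty vector and 3 with SLC2A3, were compared, SLC2A3 minus empty vector. The deposited values are a normalised signal per gene, which the authors obtained by dividing gene read counts by 1 factor per library, as the values themselves show: all came out as whole reads within 0.001 of a read. BWA, TopHat2 and the hg38 build are named, without roles, per the submitters' processing notes. The counter, its use of strand and of read mates, and the annotation are not given in the sources used here, so counting errors may be too small if mates were counted separately. Gene positions and exon lengths were taken from GENCODE 29 and promoters from RefSeq.

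Genes that reached a value of 1 in 3 or more libraries were tested with limma 3.58.1 (R 4.3.3, trend) on log2(value + 1), with Benjamini-Hochberg adjustment over all tested genes and a threshold of 0.05. The script was tested on simulated data. Alternatives used edgeR 4.0.16 and DESeq2 1.42.0 on the recovered reads, other filters, scalings and pseudocounts, the replicate number as a block, and the omission of each library in turn. Leaving out replicate 2 of both groups, the libraries highest in RN7SL1, was chosen after seeing the data. Members and lists (primary, secondary and eosinophil granules, processing, inhibitors, related proteases, transcription factors, metalloproteinases, complement, surface partners and substrates) were chosen with earlier results of these data known. The text names the members, called genes of the lists and of the 200 kb around the chromosome 19 members, abundant genes of each list, and the 5 genes most correlated with PRTN3. Other list genes were named for their known role, some after their values were seen, as were the replicate values of CEBPA, CEBPB and CEBPD.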

Additional observations from a re-analysis of the deposited data

How the results depend on the processing

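Over all genes, 418 were past the threshold (194 higher, 224 lower), and 784 were with DESeq2, 739 with a filter of at least 50 in 3 libraries and 188 to 466 with 1 library left out; the lowest counts came without SLC2A3 replicate 3 (188), empty vector replicate 3 (221) and empty vector replicate 1 (264). The cause was not tested. The median log2 change of the 10 granule genes was 0.17 in the limma fit, 0.14 to 0.20 with 1 library left out and 0.15 without replicate 2 of both groups. With the replicate number as a block, 363 genes passed and the median stayed at 0.17. Same-numbered libraries did not deviate together (correlations of -0.11, 0.01 and -0.0014 over 11730 genes, with 0 samples closest to their own number). RN7SL1, however, was highest in replicate 2 of both groups, at 1812 and 6026. Whether same-numbered libraries were made together cannot be told from these values. The block ended the calls of FCN1 (limma adjusted p = 0.0506) and MMP14 (limma adjusted p = 0.0515). As a description, PRTN3, CTSG and RNASE2 were past the threshold under all 16 alternatives, and MMP9 under 14. Among members that limma did not call, ELANE passed under 2 alternatives and CFD under 4, and the sign of AZU1 turned under 2. Outside the 10 genes, 25 values of FCN1, IL32, MMP14, PLPPR3 and RARA fell short of the threshold. With 3 libraries a group and 135 to 241 reads, MPO is the member whose change is least certain.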
